A study of Rattus norvegicus with 12 samples.

Results

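The tissue inhibitors of metalloproteinases (Timp1, Timp2, Timp3 and Timp4), the Ccn matricellular genes (Ccn1, Ccn2 and Ccn3) and 3 matrix metalloproteinases (Mmp2, Mmp14 and Mmp3) were followed in rat mesenteric lymph nodes (MLN), the nodes that drain the intestine. These 10 genes were taken by name from the platform annotation, in which Ccn1, Ccn2 and Ccn3 carry the older names Cyr61, Ctgf and Nov. They are measured by 16 of the 31042 probe sets tested on the Affymetrix Rat Genome 230 2.0 array. The study asked how conjugated linoleic acid (CLA), a family of fatty acids found in milk and given here mainly as the c9,t11 isomer, changes gene expression in the MLN of suckling Wistar rats. There were 12 pups, 1 array each and 3 in every group, taken at weaning, and the sources used here do not say which pups shared a litter. Group A pups were born to dams that ate a 1% CLA diet over the last 2 weeks of pregnancy and all of lactation, so the pups received it in milk, for 5 weeks of CLA in all. In group B the dams had the CLA diet in pregnancy and the pups then received CLA each day by gavage, again 5 weeks in all. In group C the dams ate the standard diet and the pups had 3 weeks of CLA by gavage alone. Group D had the standard diet and 0 weeks of CLA, and a vehicle gavage for group A or D is not mentioned in the sources used here. The comparisons of A, B and C with D use the same 3 group D arrays.

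Matrix metalloproteinases are zinc enzymes that cut collagens and other proteins between cells. Each Timp protein blocks them by occupying the active site, and Timp2 has a further role at the cell surface, where it links Mmp14 to the inactive form of Mmp2 so that Mmp14 can activate it. Ccn proteins are secreted into the matrix, bind integrins, and are read out in many tissues as targets of TGF-beta, of YAP with TEAD factors, and of serum response factor. In lymph nodes these genes belong mainly to the stroma of reticular fibroblasts, vessels and capsule and not to the lymphocytes.

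Levels are log2 intensities after quantile normalization, and the spread is SD with n = 3. The number of arrays limits their precision. Probe set differences were tested with limma over all 12 arrays, two-sided, with Benjamini-Hochberg adjustment over all 31042 probe sets, and a change is a difference at an adjusted p under 0.05. The deposited array medians ran between 19.3 and 38.5, and the background, read on each array as the 95th percentile of 27 control probe sets whose spike RNA was absent, lay between 2.33 and 3.20 on the log2 scale. Markers of T cells (6 of 6 measured) and B cells (4 of 4) were above background in all 12 arrays. Group D replicate 3 stood apart from its group: over all probe sets its mean correlation was 0.931 with group B, 0.930 with group C and 0.884 with group A, and 0.896 with the other group D arrays. Results that use group D are therefore given with and without this animal. It was singled out from these same data, for its likeness to groups B and C. Calls and adjusted p without it are therefore a description and not error rates. In a whole node, fewer cells of a type and less RNA per cell cannot be told apart.

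In the MLN of group A, 2 of the 16 probe sets rose against D and 0 fell, where 10.1% of all probe sets rose and 10.2% fell. These were Timp4 and 1 of the Mmp14 probe sets. An unadjusted p under 0.05 in limma was reached by 1 lower and 3 higher (14.8% and 17% of all). Group B had 0 of the 16 higher or lower against D, where 0.00644% of all probe sets rose and 0.00966% fell, and group C likewise had 0, where 0.0226% rose and 0.029% fell. At an unadjusted p under 0.05, limma placed 7 of the 16 lower and 0 higher in B (7.2% and 8.58% of all probe sets) and 10 lower and 1 higher in C (8.27% and 9.41%). Without group D replicate 3, 11 of the 16 fell in group B, where 7.82% of all fell and 9.52% rose, and 13 fell in group C, where 9.13% of all fell and 10.3% rose, with 0 members higher in either. The same step turned group A's count to 3 lower and 2 higher, where 10.9% and 11% of all probe sets were called. Group A set directly against the gavage groups gave 7 higher and 0 lower against B (16.8% and 14.5% of all) and 8 higher and 0 lower against C (17.6% and 15%). Between B and C the count was 0 in both directions, where 0.00322% of all were higher and 0% lower, and at an unadjusted p under 0.05 in limma it was 1 higher and 0 lower (2.04% and 1.96%).

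**Figure D1:**
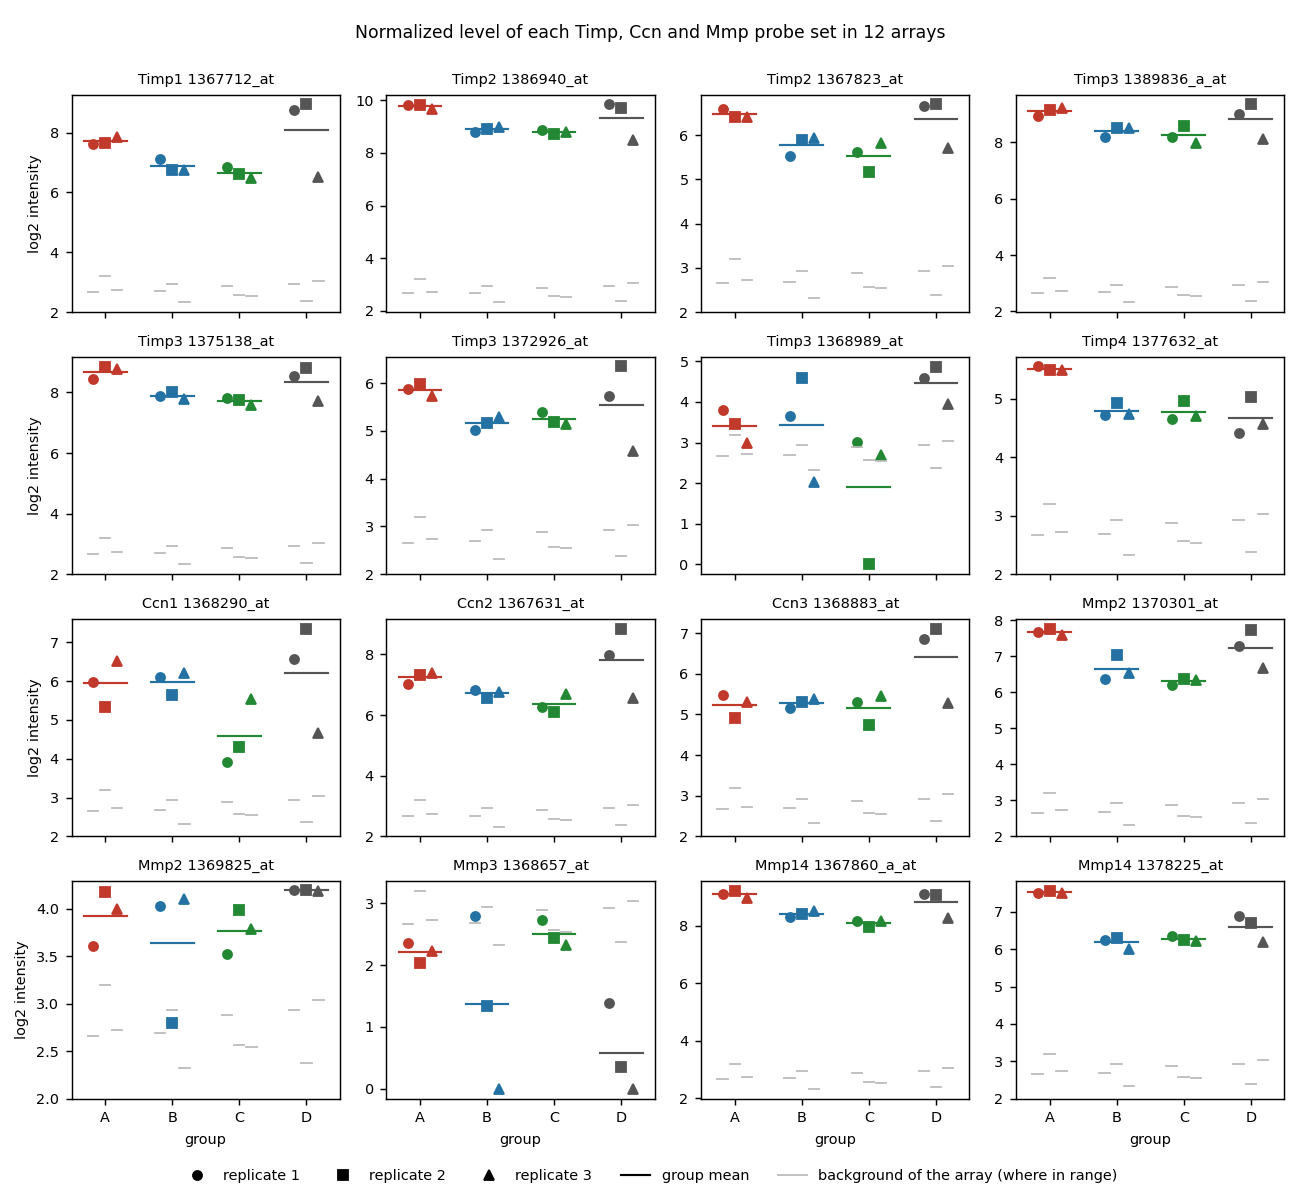
Normalized log2 intensity of each of the 16 probe sets (vertical axis, not starting at 0) in the 12 arrays, by group A, B, C and D (horizontal axis), with group means as coloured lines and the background of each array in grey where it lies in range. Group D replicate 3, the triangle in the last column, lies within or below the joint range of groups B and C for Timp1, Timp2, Ccn2, Ccn3 and Mmp14. Group A lies above B and C in Timp1, Timp2, Timp4, Ccn2, Mmp14, the brighter Mmp2 probe set and every Timp3 probe set except the dim 1368989_at.

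Timp1, a secreted inhibitor that also acts as a growth signal, had levels of 7.63, 7.64 and 7.85 in group A, 7.13, 6.75 and 6.74 in B, 6.86, 6.60 and 6.47 in C, against 8.77, 8.94 and 6.51 in group D. The first and second group D pups were above every other animal, and the third was level with group C. Group A lay above every array of groups B and C. The mean was 7.71 ± 0.12 in A, 6.87 ± 0.22 in B and 6.65 ± 0.20 in C, against 8.07 ± 1.36 in D. The log2 difference from D was -0.37 for A (95% interval -1.37 to 0.64), -1.20 for B (-2.21 to -0.19) and -1.43 for C (-2.43 to -0.42), with adjusted p of 0.654, 0.251 and 0.181. With the third D pup left out Timp1 fell in all CLA groups, by 1.16 in A (adjusted p = 0.000292), by 1.99 in B (1.55e-05) and by 2.22 in C (7.01e-06) on the log2 scale, the last a 4.66-fold fall. Without the second D pup the differences were 0.07 in A, -0.77 in B and -0.99 in C, and none passed. The A minus B difference of 0.83 and the A minus C difference of 1.06 did not pass with 12 arrays (adjusted p = 0.205 and 0.103).

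Timp2, the inhibitor that also brings Mmp2 to Mmp14, was read by 2 probe sets. The brighter one, 1386940_at, gave 9.80, 9.82 and 9.67 in group A, 8.79, 8.92 and 8.97 in B, 8.87, 8.71 and 8.79 in C, against 9.84, 9.71 and 8.48 in group D. Group A overlapped the first and second D pups and did not overlap B or C. It was higher in A than in B by 0.87 ± 0.26 (SE, adjusted p = 0.0218) and than in C by 0.97 ± 0.26 (0.012). The dimmer probe set, 1367823_at, ran between 6.42 and 6.59 in A, 5.54 and 5.93 in B, and 5.17 and 5.82 in C, against 5.72 to 6.70 in D, and passed for A minus C (0.95, adjusted p = 0.0149) but not for A minus B (0.69, 0.0654). Against D neither passed with 12 arrays, and without group D replicate 3 both fell in B (by 0.88 and 0.90) and in C (by 0.98 and 1.16) while the A minus D differences were -0.01 and -0.21.

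Timp3, which stays bound to the matrix and also restrains Adam and Adamts proteases, was read by 4 probe sets. In 1389836_a_at the levels were 8.94, 9.15 and 9.22 in group A, 8.18, 8.49 and 8.52 in B, 8.19, 8.56 and 7.98 in C, against 8.99, 9.34 and 8.10 in group D. In 1375138_at the mean was 8.68 ± 0.21 in A, 7.89 ± 0.12 in B and 7.72 ± 0.12 in C, against 8.35 ± 0.58 in D, where the 3 pups had 8.54, 8.82 and 7.70. Both probe sets put A and the first and second D pups in one high range and B, C and the third D pup in a lower one. They were higher in A than in B by 0.71 and 0.80 (adjusted p = 0.0496 and 0.0164) and than in C by 0.86 and 0.97 (0.0202 and 0.00546). The probe set 1372926_at also had A above B and C, at 5.74 to 5.98 in A, 5.01 to 5.29 in B and 5.14 to 5.39 in C, against 4.57 to 6.35 in D, with the third D pup below all other arrays, and passed nothing with 12 arrays. The fourth, 1368989_at, was above background in 10 of 12 arrays and spread over 2.03 to 4.59 within group B alone, so its log2 difference of -2.58 in C (adjusted p = 0.175) rests on dim values. Leaving out group D replicate 3, the first 3 Timp3 probe sets fell in B by 0.77 to 0.88, and all 4 fell in C, by 0.92, 0.97, 0.80 and 2.83.

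Timp4, an inhibitor best known from heart and fat tissue, had another pattern. Its levels were 5.56, 5.50 and 5.49 in group A, 4.72, 4.93 and 4.75 in B, 4.65, 4.97 and 4.70 in C, against 4.41, 5.04 and 4.57 in group D. Group A stood above all other arrays, and B, C and D shared a range in which the first and second D pups did not stand out. Timp4 rose in A against D by 0.84 ± 0.25 (SE, adjusted p = 0.0285, 1.79-fold) and by 0.80 without group D replicate 3 (adjusted p = 0.0463). It was higher in A than in B by 0.71 (0.0417) and than in C by 0.74 (0.0337). For B and C against D the differences were 0.13 (95% interval -0.40 to 0.66) and 0.10 (-0.43 to 0.63). The Timp4 call against D was lost with the deposited values (adjusted p = 0.352) and without any 1 array of group A or the first of group D (0.068 to 0.0832).

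Ccn2, a matrix protein that promotes fibroblast growth and collagen output, had levels of 7.03, 7.32 and 7.37 in group A, 6.82, 6.56 and 6.77 in B, 6.28, 6.10 and 6.70 in C, against 7.99, 8.84 and 6.56 in group D. The first and second D pups were again the highest, the third lay among B and C, and A lay between. The difference from D was -0.56 for A, -1.08 for B and -1.44 for C (adjusted p = 0.395, 0.245 and 0.166). When group D replicate 3 was left out, Ccn2 fell by 1.18 in A (adjusted p = 0.0037), by 1.71 in B (0.000446) and by 2.07 in C (0.000118), the last a 4.19-fold fall. Leaving out group D replicate 2, the highest pup, gave -0.04 in A, -0.56 in B and -0.92 in C, and none passed. A was above B by 0.52 and above C by 0.88, and neither passed with 12 arrays (0.386 and 0.124).

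Ccn1, an immediate early matrix protein that signals through integrins, was the most variable Ccn gene within groups. It had 5.98, 5.33 and 6.51 in group A, 6.10, 5.63 and 6.20 in B, 3.93, 4.31 and 5.54 in C, against 6.58, 7.35 and 4.67 in group D. Groups A and B covered the same range, all 3 group C arrays lay below all 3 of group B, and the first and second D pups were above every other animal while the third lay among group C. Ccn1 passed in no comparison with 12 arrays, with -0.26, -0.22 and -1.61 for A, B and C against D (adjusted p = 0.82, 0.895 and 0.202). B minus C was 1.38 (95% interval 0.10 to 2.66), at an unadjusted p of 0.0361 from limma and an adjusted p of 1. It fell in C by 2.38 without group D replicate 3 (adjusted p = 0.00314), while the differences of A (-1.03, 0.135) and B (-0.99, 0.166) did not pass. Leaving out the second D pup gave 0.32 in A, 0.35 in B and -1.03 in C, and none passed.

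Ccn3, a family member that opposes Ccn2 in several cell types, had 5.48, 4.92 and 5.30 in group A, 5.17, 5.31 and 5.39 in B, 5.31, 4.74 and 5.46 in C, against 6.85, 7.11 and 5.28 in group D. The 9 CLA arrays shared 1 range, which held the third D pup as well, and the first and second D pups lay above all of them. The 3 differences from D were alike in size, -1.18 for A (adjusted p = 0.0533), -1.12 for B (0.228) and -1.24 for C (0.179). They were -1.75, -1.70 and -1.82 without group D replicate 3, with adjusted p of 0.000466, 0.000743 and 0.000419, and -0.83, -0.77 and -0.89 without group D replicate 2, none of which passed. For Ccn3 A minus B was -0.06 (95% interval -0.91 to 0.80) and A minus C was 0.07 (-0.79 to 0.92).

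The promoter windows of Timp1, Ccn1 and Ccn2, the 3 genes with the largest falls in group C without group D replicate 3 apart from the dim Timp3 probe set, are printed for 250 bases before and 50 after the gene start, from RefSeq on assembly GRCr8, each on the minus strand of its chromosome. Capitals mark matches to a TEAD site (CATTCC), a Smad box (CAGAC) and a TATA box (TATAAA), searched on both strands, so a match on the other strand reads as the reverse complement. AP-1 sites (TGANTCA) and the CArG box bound by serum response factor were searched as well. The windows are Timp1 at chrX:3771073-3771372, Ccn1 at chr2:237225640-237225939 and Ccn2 at chr1:22624565-22624864.
Timp1: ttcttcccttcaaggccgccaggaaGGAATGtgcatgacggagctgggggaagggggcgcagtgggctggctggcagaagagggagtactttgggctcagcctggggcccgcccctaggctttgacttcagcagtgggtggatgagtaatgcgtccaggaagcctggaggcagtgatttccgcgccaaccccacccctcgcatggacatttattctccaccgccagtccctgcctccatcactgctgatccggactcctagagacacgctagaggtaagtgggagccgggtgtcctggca
Ccn1: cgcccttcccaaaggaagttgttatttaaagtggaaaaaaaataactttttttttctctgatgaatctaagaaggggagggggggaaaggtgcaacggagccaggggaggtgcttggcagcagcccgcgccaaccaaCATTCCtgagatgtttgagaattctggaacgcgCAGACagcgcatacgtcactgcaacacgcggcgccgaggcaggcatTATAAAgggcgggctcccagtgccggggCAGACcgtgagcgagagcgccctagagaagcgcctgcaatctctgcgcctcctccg
Ccn2: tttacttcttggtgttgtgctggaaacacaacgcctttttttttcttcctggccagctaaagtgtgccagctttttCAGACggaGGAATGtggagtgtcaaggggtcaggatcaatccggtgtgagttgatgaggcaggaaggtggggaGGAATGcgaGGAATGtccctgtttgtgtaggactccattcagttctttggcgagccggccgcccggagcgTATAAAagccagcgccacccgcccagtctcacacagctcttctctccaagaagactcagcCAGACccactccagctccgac
The Ccn2 window held 3 TEAD matches, at -166, -101 and -92 from the start, the last 2 of them close together, with 2 Smad boxes and a TATA box. Ccn1 had 1 TEAD match at -113, 2 Smad boxes and a TATA box, and Timp1 had 1 TEAD match at -225 with no other match. Of the 7 members with an entry in the promoter table, TEAD matches were in 4 (Timp1, Timp4, Ccn1 and Ccn2), where 14.2% of 33469 rat promoters have one. Smad boxes were in 3 of 7 (50.1% of all promoters), TATA boxes in 3 of 7 (14.2%), an AP-1 site in Mmp3 alone (7.33%) and a CArG box in 0 of 7 (1.64%). Ccn3, Mmp2 and Mmp14 were not searched. These letters are a description of the windows and say nothing of whether a factor binds there.

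Mmp14, the membrane-anchored collagenase, was read by 2 probe sets that differed in where they put group D. In 1367860_a_at the levels were 9.10, 9.21 and 8.96 in group A, 8.29, 8.40 and 8.52 in B, 8.17, 7.97 and 8.16 in C, against 9.09, 9.07 and 8.27 in group D. In 1378225_at they were 7.51, 7.56 and 7.50 in A, 6.25, 6.31 and 6.01 in B and 6.36, 6.24 and 6.21 in C, against 6.89, 6.69 and 6.20 in D. By the first probe set A was level with the first and second D pups, and by the second A was above every D array. Mmp14 was higher in A than in B by 0.69 and 1.33 (adjusted p = 0.0128 and 0.00014) and than in C by 0.99 and 1.25 (0.0014 and 0.000207). Against D, 1378225_at rose in A by 0.93 ± 0.17 (SE, adjusted p = 0.00244, 1.91-fold) and by 0.74 without group D replicate 3 (0.00222), whereas 1367860_a_at gave 0.28 (0.339) and 0.01 without that pup. The rise was lost with the deposited values (0.79, adjusted p = 0.112). In B and C neither passed against D with 12 arrays, and without group D replicate 3 the 2 probe sets fell by 0.68 and 0.60 in B and by 0.99 and 0.52 in C.

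Mmp2, the gelatinase that Mmp14 activates, had in 1370301_at levels of 7.69, 7.77 and 7.59 in group A, 6.38, 7.03 and 6.54 in B, 6.21, 6.37 and 6.35 in C, against 7.30, 7.74 and 6.69 in group D. A was above all of B and C, and all of C was below all of D. It was higher in A than in B by 1.03 ± 0.23 (SE, adjusted p = 0.00468, 2.05-fold) and than in C by 1.37 ± 0.23 (0.000759, 2.59-fold). Against D the differences were 0.44 in A, -0.59 in B and -0.93 in C (adjusted p = 0.223, 0.255 and 0.145), and without group D replicate 3 Mmp2 fell by 0.87 in B (0.00698) and by 1.22 in C (0.00083). The second probe set, 1369825_at, was dim at 2.80 to 4.20 over all arrays and passed nothing with or without that pup.

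Mmp3, the stromelysin that cuts many matrix proteins and can activate other metalloproteinases, was above background in 1 of 12 arrays, the first of group B. Its normalized values lay at 2.35, 2.03 and 2.23 in group A, 2.79, 1.34 and 0.00 in B, 2.73, 2.44 and 2.32 in C, against 1.38, 0.36 and 0.00 in group D, all but that one within background, so no fold is given and its separation of A and C from D is a matter of values below background.

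**Figure D2:**
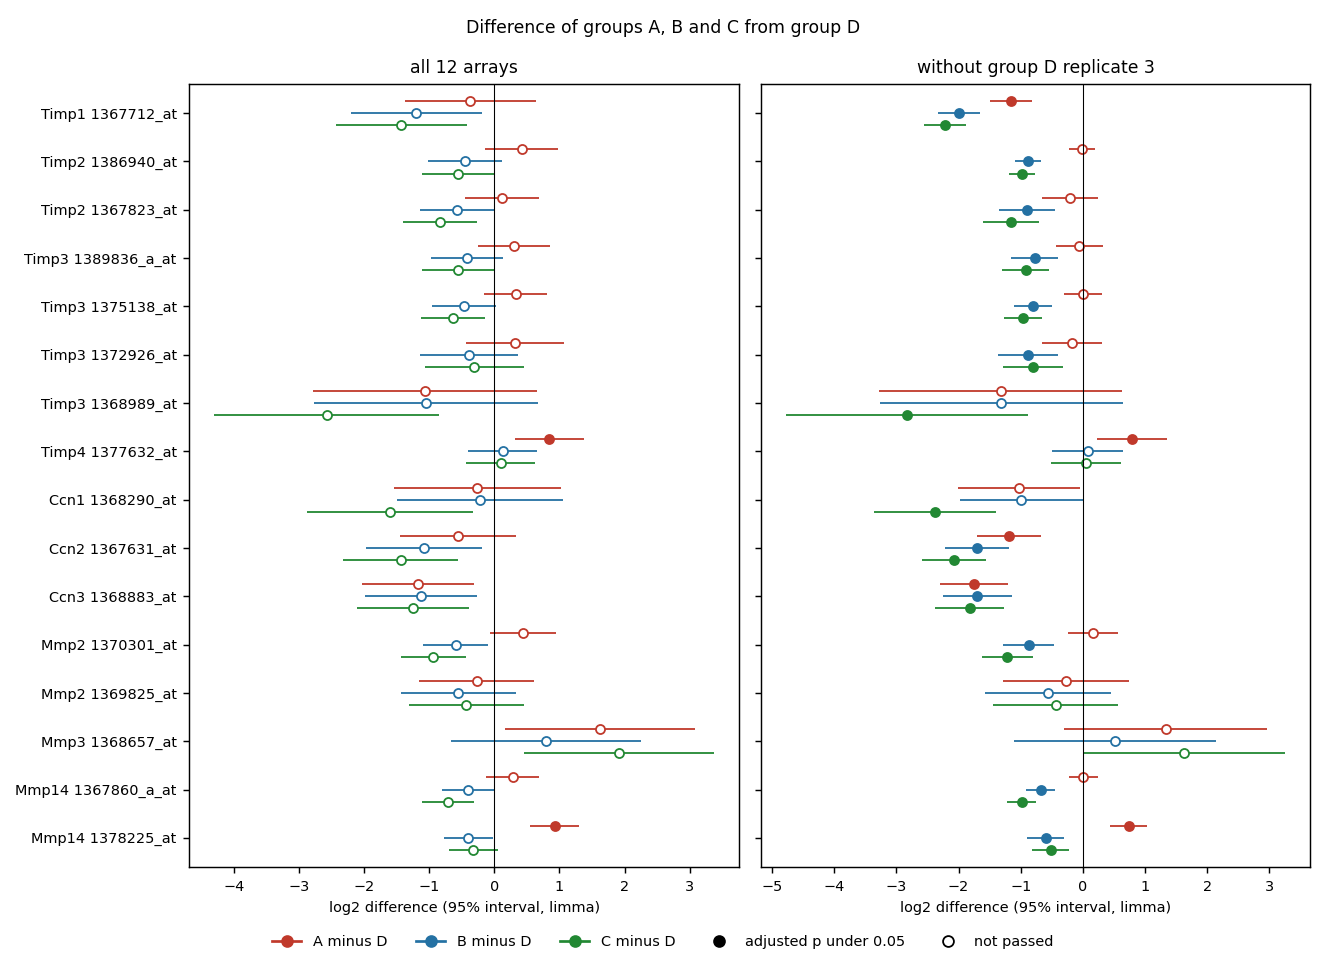
Log2 difference of groups A, B and C from group D for each probe set, with 95% intervals from limma (horizontal axis), for all 12 arrays and without group D replicate 3; filled points have an adjusted p under 0.05. With 12 arrays only Timp4 and Mmp14 1378225_at in group A are filled, and without the third D pup 11 probe sets of group B and 13 of group C are filled on the lower side.

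Read across the members, 6 of 16 probe sets had a negative log2 difference from D in group A, 14 of 16 in group B, and 14 of 16 in group C. The median over the 16 was 0.29 in A, -0.46 in B and -0.67 in C, beside 0.07, -0.04 and -0.04 over all probe sets. Without group D replicate 3 the medians were -0.12, -0.88 and -0.98, beside 0.06, -0.08 and -0.08 over all. By arrays that do not overlap those of D, 3 members were higher and 2 lower in A (19.2% and 14.6% of all probe sets), 0 higher and 1 lower in B (6.7% and 7.92%) and 1 higher and 4 lower in C (6.82% and 8.1%). The 2 lower in A were the dim Timp3 1368989_at and Mmp2 1369825_at, which were also among the 4 in C, and the 1 in B was Mmp2 1369825_at. Mmp3, within background in A, C and D, was 1 of the 3 higher in A and the 1 higher in C. After quantile normalization, the count of falls at an adjusted p under 0.05 in limma in groups B and C rests on whether 1 group D pup is included.

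With the deposited values, not scaled between arrays, the median of all probe sets itself moved to -0.12 in A, -0.55 in B and -0.70 in C against D. On that scale 12 of the 16 were called lower in C, where 22.6% of all probe sets were, and 0 in B, where 0.332% were. Relative to the median of all probe sets, 14 of 16 members lay below it in B and in C under the quantile, deposited and centred scales alike, and the median member less that median was -0.42, -0.49 and -0.47 in B and -0.64, -0.66 and -0.64 in C. In group A the deposited scale gave 1 lower member (Ccn3) and 0 higher, where 8.68% of all probe sets were lower and 1.35% higher.

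**Figure D3:**
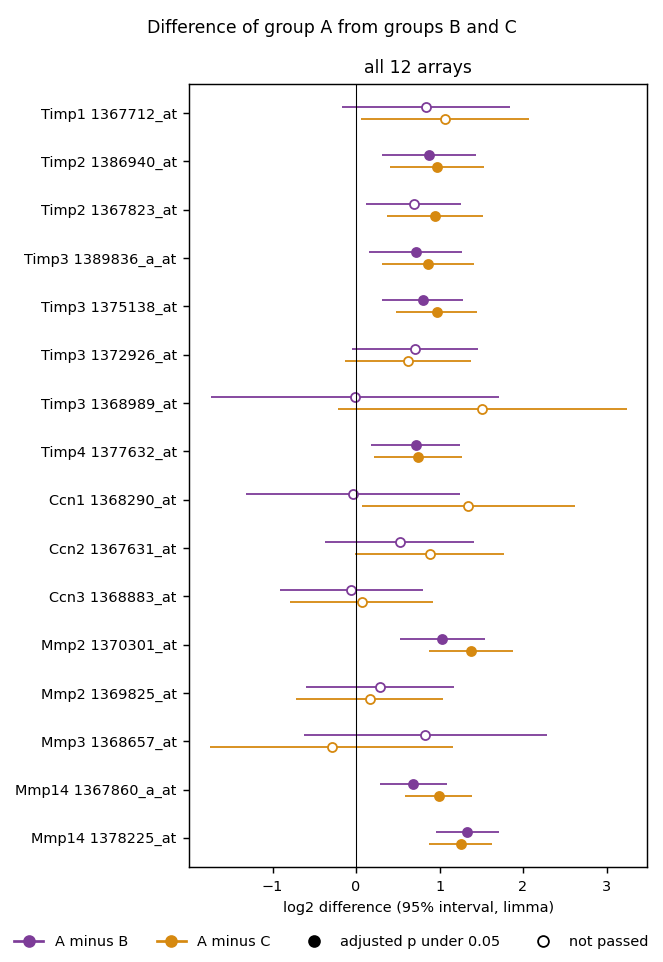
Log2 difference of group A from groups B and C for each probe set, with 95% intervals from limma over all 12 arrays (horizontal axis); filled points have an adjusted p under 0.05. Points of Timp2, Timp3, Timp4, Mmp2 and Mmp14 are filled on the higher side, between 0.69 and 1.37, and none of the Ccn genes is filled.

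Group A and group B had equal weeks of CLA and differed in the route in suckling, milk or gavage, and in the diet of the dams in lactation. Of the 10 genes, 5 were higher in A than in B and 5 were higher in A than in C, in both cases Timp2, Timp3, Timp4, Mmp2 and Mmp14, and 0 were lower. Among all probe sets 16.8% and 17.6% were higher and 14.5% and 15% lower. The medians over the 16 probe sets were 0.71 and 0.96, beside 0.10 and 0.11 over all probe sets. All 3 arrays of A lay above all 3 of B in 11 of the 16 probe sets and above all 3 of C in 11 (26.5% and 26.8% of all). The calls for Mmp2 1370301_at and Mmp14 1378225_at held against B without any 1 of the 12 arrays. The other 5 calls against B did not, and the count fell to 4 without any 1 array of A or B except the second of group A, without which it was 2. Without group D replicate 3, which enters through the shared spread, the counts were 10 against B and 12 against C (20.1% and 20.6% of all), and Timp1 (0.84 and 1.06, adjusted p = 0.000448 and 7.36e-05) was then among both.

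Group B minus group C, 5 weeks of CLA against 3 with the same gavage, gave a median of 0.16 beside 0.00 over all probe sets. The arrays of B lay above those of C without overlap in 3 of the 16, Ccn1, Mmp2 1370301_at and Mmp14 1367860_a_at (5.28% of all), with differences of 1.38, 0.34 and 0.30 and none past the adjusted threshold.

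Smooth muscle markers moved with the Timp1 and Ccn values of group D. The summed intensity of the 7 markers (Acta2, Actg2, Myh11, Cnn1, Tagln, Des and Mylk), which the muscle of vessels and gut makes for contraction, was between 2200 and 2319 in group A, 1388 and 1693 in B, 1279 and 1465 in C, against 8501, 8692 and 1554 in group D. All 7 were above background in every array except 1 of group B, where 6 were. In the third D pup Myh11 (7.55) lay above all of A, B and C (5.59 to 6.80). Its Mylk (9.22) lay above all of B and C (9.01 to 9.09), while its Acta2, Actg2, Cnn1, Tagln and Des lay within the range of B and C. With 12 arrays 3 of the 7 fell in A (10.2% of all probe sets) and 0 in B or C (7 in each had a limma p under 0.05 before adjustment). Without group D replicate 3 all 7 fell in A, B and C (10.9%, 7.82% and 9.13% of all). Mesothelial markers (6 measured) summed to 195 to 200 in A, 158 to 194 in B and 121 to 236 in C, against 585, 666 and 483 in D. In the third D pup this sum was carried by the keratins Krt8 (7.86) and Krt19 (7.21), while Msln (4.49), Upk1b (3.99), Wt1 (4.28) and Lrrn4 (5.48) lay within or below the range of B and C. Markers of fibroblasts and reticular stroma (8) summed to 9082 to 9268 in A, 6964 to 8449 in B and 6772 to 8212 in C, against 10001, 13666 and 8187 in D. Of the 8, 3 were higher and 2 lower in A than in B, and 4 higher and 1 lower than in C. Among all probe sets 16.8% and 17.6% were higher and 14.5% and 15% lower. Dcn went against the sum, at 8.01 to 8.29 in A, 9.03 to 9.97 in B and 8.81 to 9.60 in C. So did Pdgfra, at 8.34 to 8.41 in A, 8.54 to 9.02 in B and 8.43 to 8.62 in C. Endothelial markers (6) summed to 1699 to 1798 in A, 1390 to 1492 in B and 1299 to 1501 in C, against 1793, 1847 and 1302 in D. Of these 6, 3 were higher and 1 lower in A than in B, and 3 higher and 0 lower than in C. Tek went against the sum, at 7.22 to 7.42 in A, 7.76 to 8.04 in B and 7.63 to 7.87 in C. The part of these cells in the Timp, Ccn and Mmp differences was not tested.

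Group A differed in further measured ways. Macrophage markers (5) summed to 1669 to 2005 in A, 1061 to 1251 in B and 950 to 1129 in C, against 1960, 1406 and 830 in D. Of these 5, Cd68 and Csf1r alone passed, so that 2 were higher and 0 lower in A against B and against C alike. The levels of Adgre1 and Cd163 in A overlapped those of both B and C, and the levels of Cd14 overlapped those of B. B cell markers (4) summed to 1640 to 1859 in A, 3009 to 3444 in B and 3009 to 3330 in C, against 2074, 1725 and 2771 in D, so that the sum in A lay below all of B and C. These 4 were split: against B and against C alike, 2 were lower and 1 higher in A. Among all probe sets 14.5% and 15% were lower and 16.8% and 17.6% higher. Blk was the higher one, at 7.75 to 8.14 in A, 6.86 to 7.63 in B and 6.76 to 7.31 in C. Neutrophil markers (3) summed to 233 to 396 in A, 60 to 102 in B and 86 to 214 in C, against 76 to 95 in D. The ratio of 3' to 5' signal of hexokinase, a sign of RNA integrity, was 2.84 to 4.96 in A, 1.62 to 3.24 in B and 1.82 to 2.62 in C, against 1.85 to 2.53 in D, with A and B overlapping. The same ratio for actin did not set A apart, at 1.37 to 1.79 in A, 1.44 to 1.79 in B and 1.59 to 1.74 in C, against 1.30 to 1.91 in D, where the third pup was the highest. That of GAPDH was 1.205 to 1.526 in A, 1.104 to 1.124 in B and 1.1 to 1.284 in C, against 1.063 to 1.218 in D. By GAPDH all of A lay above all of B, while A overlapped C and D. The part of these in the group A differences was not tested.

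**Figure D4:**
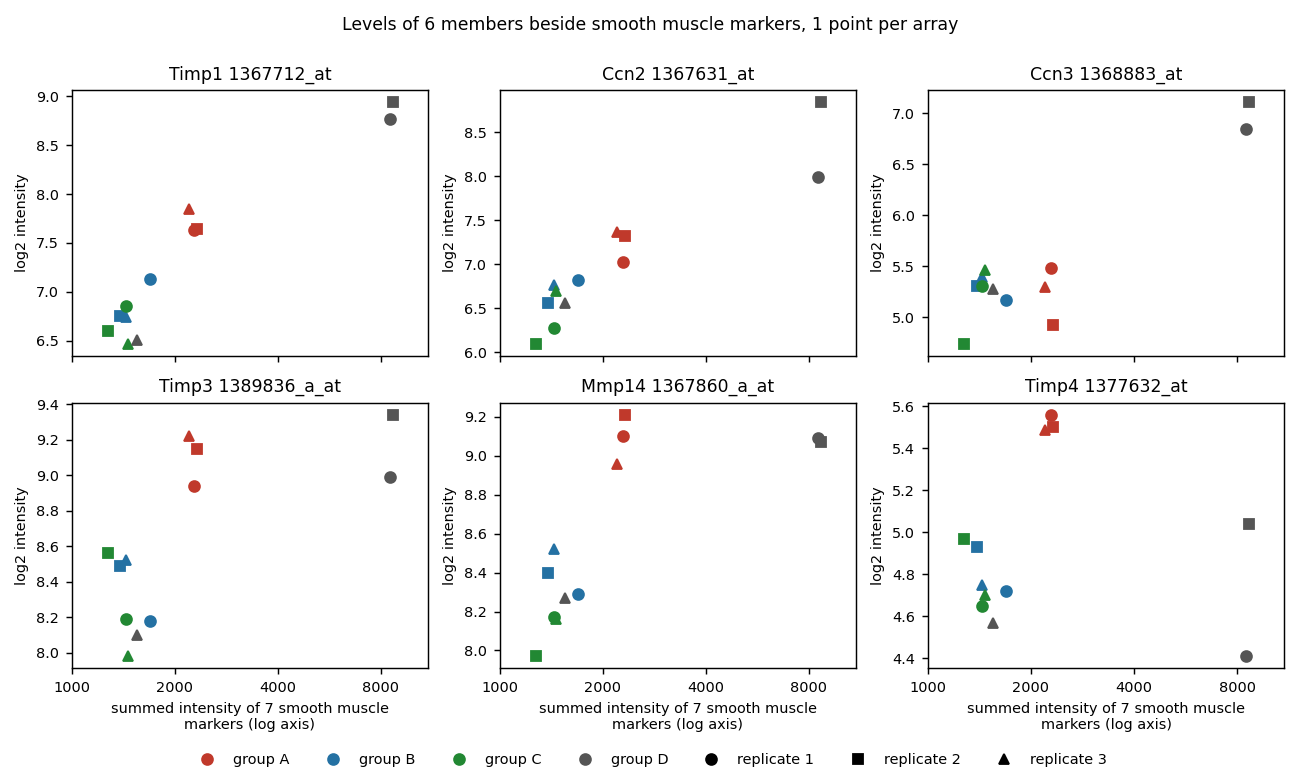
Log2 intensity of 6 member probe sets (vertical axis) against the summed intensity of 7 smooth muscle markers (horizontal log axis), 1 point per array, coloured by group and shaped by replicate. The first and second group D pups lie at 8501 and 8692 and are highest for Timp1, Ccn2 and Ccn3, group A at 2200 to 2319 is as high as they are for Timp3 and Mmp14, and for Timp4 group A alone is high.

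By the likeness of levels over the 12 arrays, the 5 genes nearest to Timp1 among 11526 compared were Acta2 (Pearson r 0.989), Tagln (0.985), Bag2 (0.978), Des (0.977) and Parva (0.969). Acta2, Tagln and Des are smooth muscle genes, and Parva encodes an adaptor between integrins and actin. The 5 nearest to Ccn2 were Igf2 (0.961), Cthrc1 (0.961), Fbln2 (0.959), Gpc3 (0.956) and Enpp3 (0.948). Igf2 is a growth factor of fetal and early postnatal tissue and Fbln2 a matrix protein. Acta2, for example, had 8.08, 8.01 and 8.06 in group A, 7.43, 7.06 and 7.35 in B, 7.37, 6.98 and 6.75 in C, against 9.19, 9.60 and 6.99 in group D. Its group means ran in the order of those of Timp1, from D through A and B to C, while the order of arrays within a group could differ. These are descriptions over 12 arrays that share 4 groups.

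Among 14 other matrix metalloproteinases measured, 3 rose and 1 fell in group A against D, where 10.1% of all probe sets rose and 10.2% fell, and 0 did in B or C (3 lower and 1 higher in each at an unadjusted limma p under 0.05). Mmp9, the gelatinase of neutrophils and macrophages, had 7.22, 7.04 and 7.17 in group A, 5.47, 5.63 and 5.76 in B, 5.68, 5.41 and 5.43 in C, against 6.18, 5.85 and 5.02 in group D. A was above all other arrays, with a rise of 1.46 against D (adjusted p = 0.00149), 1.52 against B (0.000668) and 1.64 against C (0.000403). Mmp19 rose in A by 1.09 against D (0.0454), and Mmp16, a membrane-type enzyme, fell by 1.07 (0.0306). Against B and against C, 7 of the 14 were higher and 2 lower in A (16.8% and 14.5% of all probe sets against B, 17.6% and 15% against C), with Mmp23 (1.51) and Mmp19 (1.43) next to Mmp9 against B, and Mmp15 (1.55) and Mmp11 (1.52) next to it against C. Leaving out group D replicate 3 gave 2 higher in A, Mmp9 (1.13, 0.000667) and Mmp15 (0.93, 0.0347), with 1 lower, and 2 lower and 1 higher in B and 3 lower and 1 higher in C. Of all probe sets 11%, 9.52% and 10.3% were then higher in A, B and C, and 10.9%, 7.82% and 9.13% lower. The median of the 14 was 0.43 in A, -0.34 in B and -0.34 in C against D with 12 arrays. The 14 include dim genes: Mmp7 and Mmp10 were each above background in 1 of 12 arrays, Mmp13 in 4 and Mmp28 in 5.

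Among 16 Adam and Adamts proteases, which cut proteins at the cell surface or in the matrix, 3 rose and 4 fell in group A against D (10.1% and 10.2% of all probe sets). Adam10, the sheddase of Notch, had 4.87, 5.05 and 5.15 in group A, 8.14, 7.98 and 7.67 in B, 8.20, 7.81 and 7.62 in C, against 6.76, 6.92 and 7.84 in group D. It was the lowest in A without overlap, with log2 differences of -2.15 against D (adjusted p = 0.000116), -2.91 against B (8.97e-06) and -2.86 against C (9.24e-06). Adam9 fell by 1.83 in A against D (0.00424), and Adamts10, a matrix protease, was higher by 1.09 (0.00164). Without group D replicate 3 the list had 3 higher and 6 lower in A (11% and 10.9% of all probe sets). These directions are opposite within 1 list, and its median against D was -0.26 in A, -0.07 in B and -0.35 in C.

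Among 15 activators, inhibitors and docking partners of metalloproteinases, 1 rose and 1 fell in A against D, beside the same 10.1% and 10.2% of all probe sets: Furin, which trims the proform of Mmp14, rose by 0.72 (adjusted p = 0.0156) and Itgb1, an integrin chain, fell by 0.59 (0.0151). Furin was also higher in A than in B by 1.00 (0.00141). In B and C 0 passed with 12 arrays (2 and 4 lower at an unadjusted limma p under 0.05), and 7 of 15 fell in each without group D replicate 3 (7.82% and 9.13% of all). Among these were Plat, the tissue plasminogen activator, at -1.10 and -1.01 and Bsg, an inducer of metalloproteinases, at -0.94 and -0.99. Of 12 matrix substrates, 1 rose and 1 fell in A against D, in that Col4a1 of basement membranes rose by 0.62 (0.00934) and Dcn, the collagen-binding decorin, fell by 1.76 (0.00282). In B and C 0 passed with 12 arrays (6 and 7 lower at an unadjusted limma p under 0.05). Elastin (Eln) had 8.16, 8.58 and 8.44 in A, 7.05, 6.63 and 6.84 in B and 6.58, 6.68 and 6.93 in C, against 8.92, 9.68 and 7.64 in D, and was higher in A than in B by 1.55 (0.00603) and than in C by 1.66 (0.00389). Without group D replicate 3, 7 of the 12 substrates fell in B and 11 in C, as did 5 in A (7.82%, 9.13% and 10.9% of all probe sets).

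Of the 3 other Ccn genes, Ccn4 was above background in 7 arrays and Ccn5 in 2. Ccn6 had 4.92, 3.68 and 5.04 in group A, 5.86, 6.25 and 5.93 in B, 4.79, 4.69 and 5.02 in C, against 5.60, 3.65 and 4.18 in group D, and had a log2 difference of -1.46 in A against B (adjusted p = 0.0302). Among 15 regulators and targets of YAP, TEAD and serum response factor, 3 rose and 0 fell in A against D, where 10.1% of all probe sets rose and 10.2% fell: Amotl2 by 0.80 (0.00621), Srf, serum response factor itself, by 0.79 (0.00149) and its coactivator Mrtfa by 0.71 (0.000907). In A, 6 of the 15 were higher than in B and 8 higher than in C, with 0 lower (16.8% and 17.6% of all probe sets were higher). Ccn1 and Ccn2 themselves passed in neither with 12 arrays, and without group D replicate 3 both were higher in A than in C, by 1.35 (adjusted p = 0.0186) and 0.88 (0.00519). In B and C 0 passed against D with 12 arrays (1 lower in B, 4 lower and 1 higher in C at an unadjusted limma p under 0.05), and 2 and 7 fell without group D replicate 3 (7.82% and 9.13% of all).

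**Figure D5:**
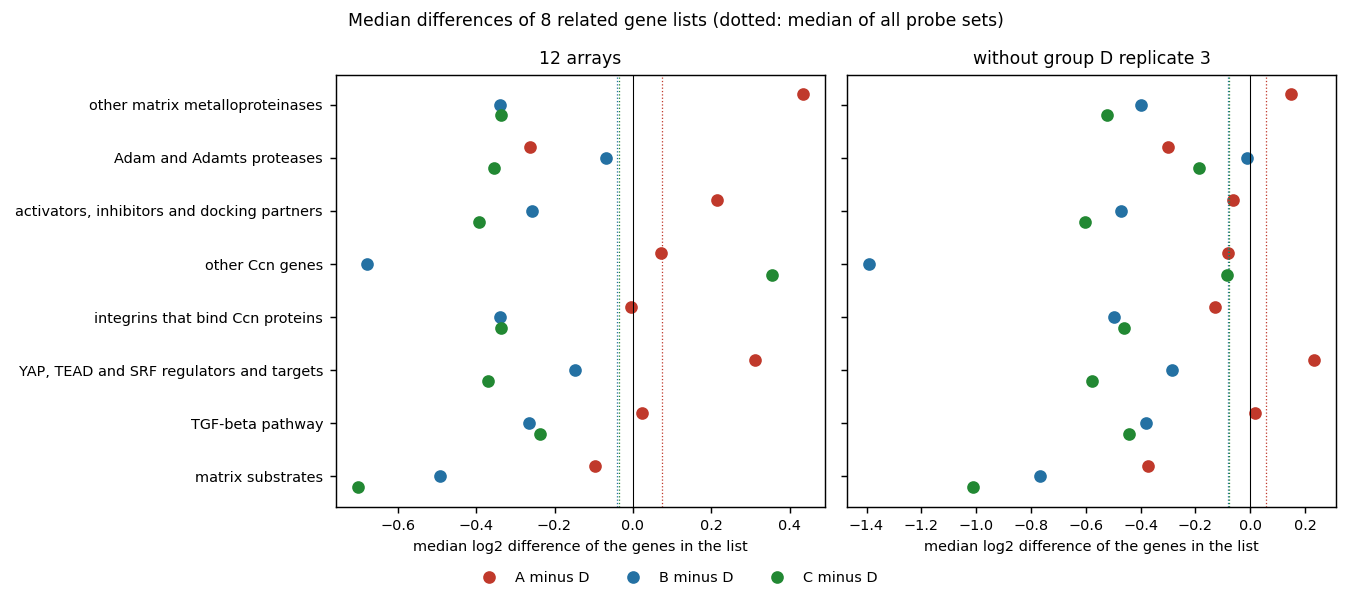
Median log2 difference from group D (horizontal axis) of the measured genes in 8 related lists, for groups A, B and C, with 12 arrays and without group D replicate 3; dotted lines are medians of all probe sets. With 12 arrays the medians of group A are 0.43 for other matrix metalloproteinases and 0.31 for regulators and targets of YAP, TEAD and SRF, and the medians of matrix substrates are -0.49 in B and -0.70 in C.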

How the data were processed

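RNA of the MLN of 12 pups, 3 picked at random from each group, was hybridized to 1 array each. The authors deposited MAS5 signal intensities (named in the submitters' processing notes without a version), which are linear and differ in scale between arrays. For the 31099 probe sets, 30 zeros were replaced by the lowest value above 0, log2 values were quantile normalized across the 12 arrays, and a floor of 1 was applied on the linear scale. Quantile normalization was chosen with the array medians known. After removal of 57 control probe sets, 31042 entered the tests, 20826 of them with a single gene symbol, 436 with several and 9780 with none. Older symbols were brought to those of GRCr8 through the gene number. Tests used limma 3.58.1 (R 4.3.3) with a mean for each group and a variance trend. Since an exact permutation test of 3 arrays against 3 has a smallest p of 0.1, the calls depend on the spread that limma pools over probe sets. All probe sets of the 10 genes are described. In a related list each gene is read by its brightest probe set, and up to 3 of the largest differences that pass are named, with per-array levels added for a few; those of Acta2, Eln, Tgfb1, Itga5 and Ccn6 were added after their values were seen. Ccn2 and Timp1 were set beside the 5 genes of highest Pearson r. The members and lists were chosen with earlier results of these data known. The scripts were tested on simulated data. The settings varied were the scaling (none, or the 75th percentile), the floor (32), the filter (dimmest 40% removed), the variance trend, the samples fitted (2 groups), the probe sets (1 per gene), the adjustment, a replicate block, and each array in turn. Shared replicate numbers did not pair the animals: residuals of same-numbered arrays correlated between -0.0152 and 0.0826 over 18 pairs, with 0 over 0.1.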

Additional observations from a re-analysis of the deposited data

Results flagged for a closer look

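For 15 probe set comparisons the difference of group A from D was not that of group B or C from D, tested directly with limma as A minus B or A minus C, where the group D values cancel. Besides the route, A differed from both B and C in the diet of the dams in lactation, and from C also in CLA in pregnancy and total weeks. The study also gives another ratio of CLA isomers in the plasma of A than of B and C. Gavaged litters were kept from their dams before each dose. These cannot be told apart. All 15 were higher in A in 3 of 3 arrays than in any array of the gavage group. They were picked for passing in these same arrays, so this adds no support. Of all probe sets, 26.5% lay higher without overlap in A against B and 26.8% against C. Against B the differences on the log2 scale were 0.87 for Timp2 1386940_at, 0.71 for Timp3 1389836_a_at, 0.80 for Timp3 1375138_at, 0.71 for Timp4, 1.03 for Mmp2 1370301_at, 0.69 for Mmp14 1367860_a_at and 1.33 for Mmp14 1378225_at. Against C they were 0.97 for Timp2 1386940_at, 0.95 for Timp2 1367823_at, 0.86 for Timp3 1389836_a_at, 0.97 for Timp3 1375138_at, 0.74 for Timp4, 1.37 for Mmp2 1370301_at, 0.99 for Mmp14 1367860_a_at and 1.25 for Mmp14 1378225_at. Of all probe sets, 16.8% were higher in A than in B and 17.6% higher than in C.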

How the results depend on the processing

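The count of members called changed as follows. For A against D, lower calls were 1 with the deposited values, with centring on the 75th percentile, with 1 probe set per gene and at an unadjusted p, in place of 0, and higher calls were 0 with the deposited values and 1 with a fit of the 2 groups or 1 probe set per gene, in place of 2. For B against D, 7 were lower at an unadjusted p, and for C against D, 12 were lower with the deposited values and 10 lower and 1 higher at an unadjusted p. A against B gave 11 with a fit of the 2 groups, A against C gave 5 with 1 probe set per gene, and B against C gave 1 higher at an unadjusted p. Without 1 array, the calls ran from 0 to 3 lower and 1 to 3 higher for A against D, 0 to 11 lower for B and 0 to 13 lower for C against D, 2 to 10 higher for A against B and 6 to 12 higher for A against C. For A against D, 1 higher came without any array of A or the first of D, and against B the count fell by over 1.5 times without any array of A or B. Among the settings that left out 1 array, group D replicate 3 was the one whose removal gave lower calls against D. With the replicate block the counts were those without it, 2 higher for A against D, 7 against B and 8 against C, and no call changed, though the numbers do not pair the animals. With the deposited values the sign turned for Timp2 1367823_at in A against D (-0.11), Timp4 in B (-0.33) and C (-0.54) against D, Timp3 1368989_at (0.21), Ccn1 (0.22) and Ccn3 (0.15) in A against B, Mmp3 in A against C (0.21), and Timp3 1372926_at (0.09), Mmp2 1369825_at (0.10) and Mmp14 1378225_at (0.07) in B against C. A floor of 32 turned Timp4 in B and C against D (-0.01 each), and centring turned Ccn3 in A against C (-0.05). Without 1 array the sign turned within these ranges. For A against D they were -1.16 to 0.07 for Timp1, -0.01 to 0.66 and -0.21 to 0.28 for Timp2, -0.06 to 0.56 and -0.18 to 0.71 for Timp3 and -1.03 to 0.32 for Ccn1. For B against D they were -0.88 to 0.01 for Timp3 1372926_at, 0.00 to 0.31 for Timp4 and -0.99 to 0.35 for Ccn1, and for C against D -0.80 to 0.10 for Timp3 1372926_at and -0.03 to 0.28 for Timp4. For A against B they were -0.71 to 0.57 for Timp3 1368989_at, -0.32 to 0.27 for Ccn1, -0.18 to 0.10 for Ccn3 and -0.14 to 0.52 for Mmp2 1369825_at, and for A against C -0.15 to 0.22 for Ccn3. For B against C they were -0.04 to 0.13 for Timp4, -0.09 to 0.26 for Ccn3, -0.36 to 0.30 for Mmp2 1369825_at and -0.14 to 0.01 for Mmp14 1378225_at. The cause of these changes was not tested.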

Other observations

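The TGF-beta pathway, which drives Ccn2 and Timp1 in fibroblasts, was also read. Tgfb1 had 8.99, 8.99 and 8.77 in group A, 6.84, 7.72 and 7.39 in B, 7.59, 7.80 and 7.83 in C, against 8.25, 8.04 and 7.56 in group D. Of 16 pathway genes measured, 3 rose and 2 fell in A against D (10.1% and 10.2% of all probe sets), with Tgfb1 (0.96, adjusted p = 0.00673), Smad7 (0.80, 0.0303) and Tgif1 (0.79, 0.00102) as the largest. Against B, 9 of the 16 were higher in A and 3 lower (16.8% and 14.5% of all), and Tgfb1 (1.60), Ltbp4 (1.46), a protein that stores TGF-beta in the matrix, and the coreceptor Eng (1.42) led. Against C, 9 were higher and 2 lower (17.6% and 15% of all), with Ltbp4 (1.46) and Tgfb3 (1.44) among the higher and Skil, a repressor of Smad proteins, at -1.30. In B and C 0 passed against D with 12 arrays (6 lower in B, 4 lower and 1 higher in C at an unadjusted limma p under 0.05), and 6 and 5 fell and 2 and 2 rose without group D replicate 3. Of all probe sets 7.82% and 9.13% then fell and 9.52% and 10.3% rose.

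Of 9 integrin chains that bind Ccn proteins, 2 rose in A against D, Itga2b by 0.98 (adjusted p = 0.0282) and Itgb5 by 0.69 (0.0417), and Itgb1 fell by 0.59 (0.0151). Of all probe sets 10.1% rose and 10.2% fell. Without group D replicate 3 the 2 rises no longer passed, and 2 chains were lower and 0 higher (10.9% and 11% of all). Itga5, the fibronectin receptor chain, had 5.86, 6.09 and 6.11 in group A, 4.43, 4.79 and 4.48 in B, 5.03, 4.78 and 4.51 in C, against 6.14, 5.80 and 4.87 in group D, and was higher in A than in B by 1.45 (0.00321) and than in C by 1.24 (0.00768).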
